A study of Homo sapiens with 4 samples.

Results

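Genes for enzymes that add or remove methyl and acetyl groups on the lysines and arginines of histones were followed in the list of DNA methylation peaks that appeared in HEK293 cells, a human embryonic kidney cell line, with the wild type Ab-3A3L construct. Members were chosen by symbol among the protein-coding genes of GENCODE release 44 lifted to hg19. They were the genes named KMT, KDM, SETD, HDAC, SIRT, KAT or PRMT with a number, together with EZH1, EZH2, EED, SUZ12, EP300, CREBBP, NSD1, NSD2, NSD3 and DOT1L. This gave 81 of 20162 protein-coding genes, with 43 writers, which add a group or belong to the core of a complex that does, and 38 erasers, which remove one. Membership went by name, and 17 of the 81 are not known chiefly as enzymes acting on histones, among them SETD3, which methylates actin, HDAC6, which deacetylates tubulin, and the mitochondrial sirtuins SIRT3, SIRT4 and SIRT5. The promoter of a gene was taken as the window from 1000 bp before to 1000 bp after the start of its canonical transcript.

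The cells carried dCas9-SunTag, a catalytically dead Cas9 with an array of peptide tags, a single-chain antibody against the tag fused to the C-terminal domains of DNMT3A and DNMT3L (Ab-3A3L), and an sgRNA to the CpG island of ISG15. All components came from transient transfection, and cells positive for every plasmid were sorted 3 days later. The series has 4 libraries, 1 each of untreated cells and of cells with wild type, K844E or R887E Ab-3A3L, and the mutations lie in the DNMT3A part. Only wild type Ab-3A3L cells are described below, through the authors' list of peaks gained over untreated cells, and the other libraries were not analysed here. Methylated DNA was pulled down with the methyl-CpG binding protein MBD2 and sequenced. With 1 library there was no replicate spread, so no difference was tested and all comparisons below are descriptions.

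Histone modifying enzymes act at nucleosomes, where trimethylation of lysine 4 on histone H3 (H3K4) marks active promoters, H3K36 methylation marks transcribed gene bodies, and H3K27 methylation by the Polycomb complex PRC2 marks repressed genes. Acetylation of histone tails goes with open chromatin, and histone deacetylases and sirtuins reverse it. Many of these enzymes are expressed in nearly all tissues from promoters in CpG islands, which are CpG-rich stretches that are usually free of DNA methylation. DNMT3A and its partner DNMT3L set new methylation at CpGs.

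Sequences of 5 members are shown because the number of CpGs in them differed, and so did the listing of a peak. All are hg19, 151 bp, 5′ to 3′ on the strand of the gene, with each CpG in capitals. For NSD2 (chr4:1872347-1872497, plus strand), KDM6A (chrX:44732959-44733109, plus strand) and KDM4D (chr11:94706409-94706559, plus strand) the stretch is centred on the summit of the peak with the highest fold. For KDM4E (chr11:94757958-94758108, plus strand), a relative of KDM4D on the same chromosome, it lies at the same distance from the start site as in KDM4D. For HDAC4 (chr2:240323337-240323487, minus strand) it lies at the same distance as in NSD2. KDM4E and HDAC4 had no new peak at the promoter.
NSD2: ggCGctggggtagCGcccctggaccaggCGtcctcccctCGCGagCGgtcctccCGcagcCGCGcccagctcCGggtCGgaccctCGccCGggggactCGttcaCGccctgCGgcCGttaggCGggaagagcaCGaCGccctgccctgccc
KDM6A: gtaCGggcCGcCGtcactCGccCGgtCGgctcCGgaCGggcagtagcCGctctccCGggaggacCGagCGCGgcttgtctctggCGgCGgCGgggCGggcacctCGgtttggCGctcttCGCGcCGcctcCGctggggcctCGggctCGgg
KDM4D: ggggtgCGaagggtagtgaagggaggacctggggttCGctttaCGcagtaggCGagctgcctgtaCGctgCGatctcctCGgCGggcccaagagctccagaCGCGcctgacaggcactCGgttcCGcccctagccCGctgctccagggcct
KDM4E: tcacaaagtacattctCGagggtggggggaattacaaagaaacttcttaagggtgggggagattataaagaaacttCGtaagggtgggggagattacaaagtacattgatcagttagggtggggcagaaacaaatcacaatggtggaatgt
HDAC4: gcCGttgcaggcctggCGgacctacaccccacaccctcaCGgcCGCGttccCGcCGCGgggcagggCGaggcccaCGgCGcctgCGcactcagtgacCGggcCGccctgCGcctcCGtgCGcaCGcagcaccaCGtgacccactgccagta
The stretch held 20 CpGs in NSD2, 25 in KDM6A, 13 in KDM4D, 2 in KDM4E and 19 in HDAC4. The KDM6A stretch lies in an intron and the other 4 outside the transcript of the gene.

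A new peak overlapped the promoter of 50 of the 81 members, or 61.7% (95% exact binomial interval 50.3% to 72.3%), against 41.6% of all protein-coding promoters. Among writers 29 of 43 promoters had one, or 67.4% (51.5% to 80.9%), and among erasers 21 of 38, or 55.3% (38.3% to 71.4%). These intervals cover counting error over genes and overlapped each other. Members differed from other genes in the CpG content of their promoters. A CpG island, rebuilt from the hg19 sequence, overlapped the promoters of 75 members, or 92.6%, and 71.7% of all promoters. In CpG islands 66.7% of member promoters had a new peak, against 57.5% of all such promoters. None of the 6 members outside islands had a peak (KDM4E, KDM4F, KDM5D on chromosome Y, HDAC8 on chromosome X, HDAC9 and SIRT4). This allows a share of up to 50%, with 3 counts as the limit for a count of 0. Of all promoters outside islands 1.44% had a peak. Under a stricter definition of an island (500 bp, 55% GC, observed/expected 0.65) the share was 68.5% of 73 members and 64.7% of all promoters.

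The median member promoter held 134 CpGs, with 142 in writers and 126 in erasers, and the median over all promoters was 96. Members with a new peak had a median of 148.5 CpGs (quartiles 125.5 and 197) and members without one 103 (quartiles 88.5 and 140.5). The same medians over all promoters were 130 and 63. The MBD2 pulldown itself depends on CpG number, and how far it shaped these differences was not tested. When all promoters were divided into 10 classes of equal size by CpG number, 47 members fell into the 3 classes with the most CpGs and 37 of these had a peak, or 78.7%, against 75.7% of all promoters in those classes. In the 3 classes below, 13 of 27 members had one, or 48.1%, against 52.8%. None of the 7 members in the 4 classes with the fewest CpGs had a peak, which allows a share of up to 42.9%, against 7.60% of all promoters there. Averaged over the classes of the members, the share of all promoters with a peak was 63.4%, close to the 61.7% of the members. For writers this average was 68.9% beside 67.4%, and for erasers 57.1% beside 55.3%. Such averages, here and below, take no account of chromosome, although 8.17% of all promoters on X had a peak, and 12.8% of those in islands. Of the members, 4 erasers lie on X, and the eraser KDM5D, among the 7 above, lies on Y.

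The fold in the authors' list compares the fragments at the summit with a background rate after 1 is added to each, fold = (fragments + 1)/(rate + 1), and the peak with the highest fold stands for a promoter. Where fragments are given over a rate below, this formula links them to the fold. That the rate comes from the untreated library is inferred and not stated in the sources used here, so what it measures at a promoter is not known for certain. Over the 50 members the median fold was 7.74 (quartiles 6.49 and 10.3), with a range from 2.61 to 16.7. Over the 8386 promoters with a new peak it was 8.26 (quartiles 6.21 and 11.05). Writers had a median of 7.77 and erasers of 7.67. The fold of 29 members lay below the median of all promoters with a peak, 3 (KMT2D, NSD2 and EP300) lay at or over their 90th percentile of 13.6, and 2 (KMT5B and SIRT7) at or under their 10th percentile of 4.67. The fragments at the summit, worked out from fold and p-value together, had a median of 16 in members and 17 over all promoters with a peak. At these numbers the fold is coarse, since at the lowest background rate of 0.611 each fragment adds 0.621 to it. KDM3B, KAT2B and SETD9 share a fold of 7.67 because each had 12 fragments over a rate of 0.694. Across the 50 members, which share 1 library, Spearman's rho between the fold and the CpGs of the promoter was 0.257 and Pearson's r 0.266, and across all promoters with a peak these coefficients were 0.0483 and 0.0399.

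**Figure D1:**
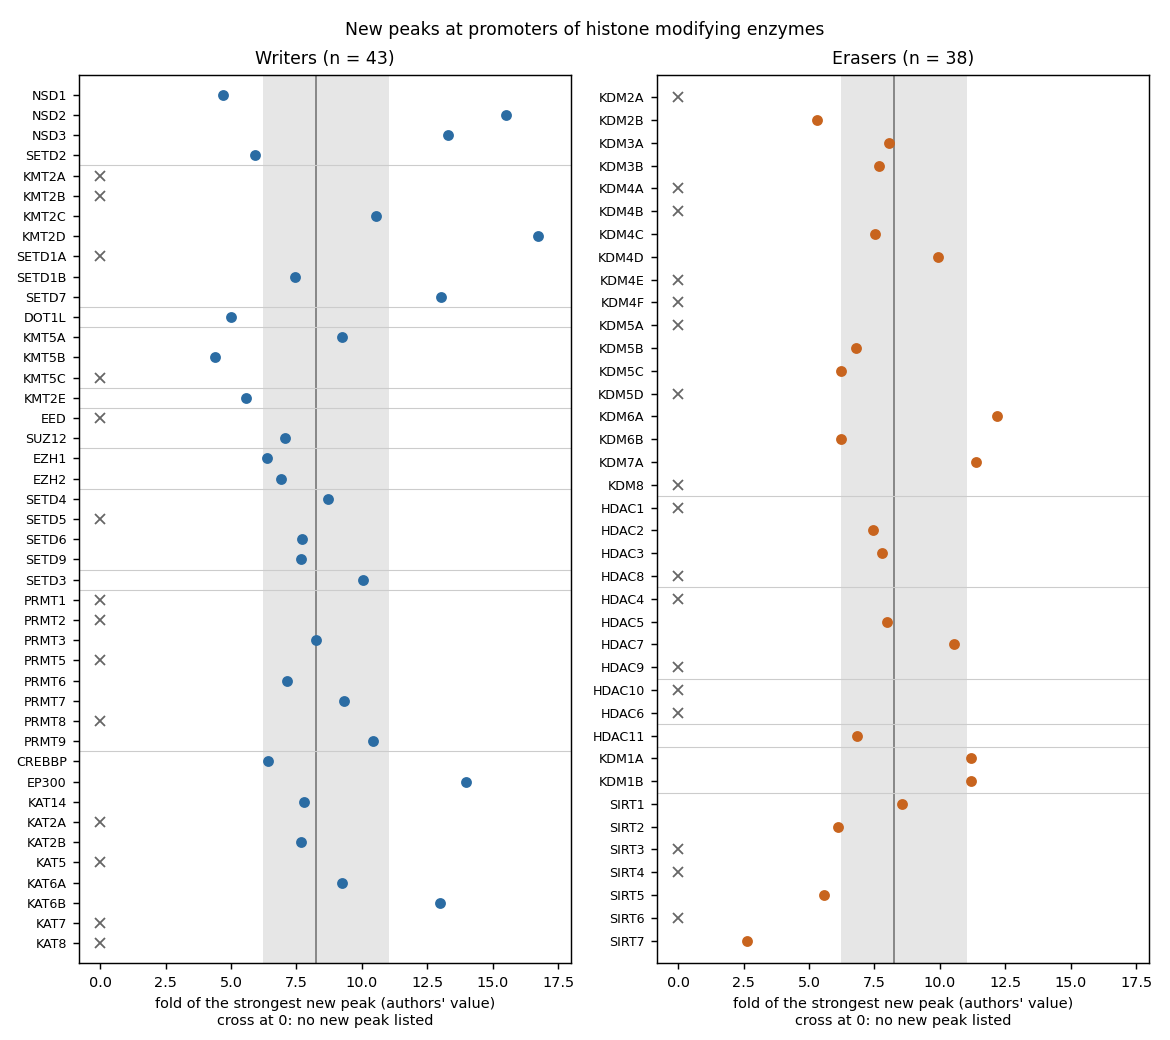
Fold of the strongest new peak at each promoter, writers on the left and erasers on the right, grouped by role. Crosses at 0 are members with no new peak, the grey line and band are the median (8.26) and quartiles over all protein-coding promoters with a peak, and of the 50 members with a peak most lie inside the band.

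The count of each role is given with the share of all promoters with a peak, averaged over the CpG classes of its genes. Among the H3K4 methyltransferases, 4 of 7 promoters had a new peak (class average 78.4%). The highest fold of all members was that of KMT2D, an enzyme of enhancers, with a peak at chr12:49453372-49454493, a fold of 16.7 and its summit in the untranslated part of exon 1. It had 26 fragments at the summit (95% exact Poisson interval 16.98 to 38.1) over a rate of 0.615, and its fold was higher than that of 97.1% of the promoters with a peak. Its relative KMT2C had a fold of 10.6, from 16 fragments. SETD7, which methylates H3K4 and many other proteins, had a fold of 13.0 and 20 fragments. SETD1B had 7.45 with 11 fragments.

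No new peak was listed at KMT2A or KMT2B, the relatives of Drosophila trithorax, or at SETD1A. Their promoters held 175, 210 and 166 CpGs, more than the median of 130 in promoters with a peak. The nearest peaks lay 93917 bp, 74342 bp and 8335 bp from their start sites. KMT2E, a member of the same family in which enzyme activity is doubtful, had a peak with a fold of 5.59 from 8 fragments (3.45 to 15.8). Of all promoters in the CpG class of KMT2E, 70.2% had a peak. The H3K4 group thus held the highest fold among members and 3 CpG-rich promoters with no listed peak.

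All 4 H3K36 methyltransferases had a peak, with 78.4% of all promoters in their CpG class having one, and their folds ranged from 4.69 to 15.5. NSD2 had a fold of 15.5 at chr4:1871875-1872765, with 24 fragments (15.4 to 35.7) over the lowest background rate. NSD3 had a fold of 13.3 with 23 fragments. SETD2, which sets trimethylation on H3K36, had 5.90 with 9 fragments. NSD1 had 4.69 at chr5:176561055-176561307, from 19 fragments (11.4 to 29.7) over a rate of 3.27. The Poisson intervals of NSD1 and NSD2 overlap, and the background rates of the 2 genes were 3.27 and 0.611. DOT1L, which methylates H3K79, had a fold of 5.01 from 15 fragments over a rate of 2.19 (class average 78.4%).

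Of the 4 core genes of PRC2, 3 had a peak (class averages 66.1% for EZH1 and EZH2 and 62.0% for EED and SUZ12), each with a fold below the median of all promoters with a peak. EZH2, the catalytic subunit of dividing cells, had a fold of 6.92 from 12 fragments. Its relative EZH1 had 6.39, also from 12 fragments. SUZ12, a scaffold subunit, had 7.06 from 13 fragments. EED, which reads the mark that PRC2 sets, had no peak at a promoter with 103 CpGs, and the nearest peak lay 175729 bp away. Of the 3 H4K20 methyltransferases 2 had a peak (class average 69.4%). KMT5A, which sets the first methyl group, had a fold of 9.23 with 16 fragments. KMT5B had the lowest fold of the writers, 4.40 at chr11:67981167-67981529, with 17 fragments (9.90 to 27.2) over a rate of 3.09. KMT5C had no peak. Of 4 SET domain genes with other or uncertain substrates, 3 had a peak (class average 70.2%). Their folds were 8.69 for SETD4, 7.71 for SETD6 and 7.67 for SETD9, and SETD5 had no peak at a promoter with 182 CpGs. SETD3, counted apart, had a fold of 10.04 (class average 78.4%).

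Of 10 lysine acetyltransferases, 6 promoters had a peak (class average 66.6%). EP300, a coactivator at enhancers, had a fold of 13.99 at chr22:41487884-41489178, with 26 fragments over a rate of 0.931. Its relative CREBBP had 20 fragments over a rate of 2.28 and a fold of 6.40. The pair thus differed less in fragments than in fold. KAT6B had a fold of 13.0, and its relative KAT6A 9.25. KAT14 had 7.77 and KAT2B 7.67. KAT2A, KAT5, KAT7 and KAT8 had no peak, and their promoters held 83 to 116 CpGs.

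Among the arginine methyltransferases 4 of 8 had a peak (class average 57.9%), and these were PRMT9 with a fold of 10.4, PRMT7 with 9.31, PRMT3 with 8.26 and PRMT6 with 7.12. PRMT1 and PRMT5, which account for most of the asymmetric and the symmetric dimethylation of arginine in cells, had none, and neither had PRMT2 or PRMT8. The PRMT8 promoter just missed one, as a peak began 1006 bp from its start site.

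Both flavin-dependent demethylases (class average 74.4%) had a peak with a fold of 11.2, from 17 fragments (9.90 to 27.2) over the lowest background rate. These were KDM1A, which removes methyl groups from H3K4, at chr1:23345816-23346503 with the summit in coding exon 1, and KDM1B at chr6:18155256-18156380 with the summit in the untranslated part of exon 1. Of the 18 Jumonji demethylases, 10 had a peak (class average 53.7%). KDM6A, which demethylates H3K27, had the highest fold of the erasers, 12.2 at chrX:44732450-44733418, with 21 fragments (13.0 to 32.1). KDM6B, with the same activity, had 6.21 and 9 fragments. KDM7A had 11.4 at chr7:139876610-139877507 with 19 fragments. KDM3A and KDM3B, which act on H3K9, had 8.07 and 7.67. KDM2B, which binds CpG islands through its CXXC domain, had the lowest fold of the demethylases, 5.31 at chr12:122018284-122018557, with 18 fragments over a rate of 2.58.

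Of 11 HDAC genes, 5 promoters had a peak (class average 59.1%). Among class I genes (CpG class average 52.1%), HDAC2 had a fold of 7.45 with 11 fragments and HDAC3 had 7.79 with 15. HDAC1 and HDAC8, the latter on chromosome X, had no peak. In class IIa (CpG class average 55.7%), HDAC7 had 10.6 with 16 fragments and HDAC5 had 7.98 with 21. HDAC4 and HDAC9 had no peak. Neither class IIb gene, HDAC6 on chromosome X or HDAC10, had a peak (CpG class average 70.2%). The class averages take no account of chromosome, and of all X promoters in islands 12.8% had a peak. HDAC11, the class IV gene, had 6.82 with 13 fragments (CpG class average 78.5%). The folds of the 5 HDAC genes thus stayed between 6.82 and 10.6, within the quartiles of all promoters with a peak.

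Of the 7 sirtuins, 4 had a peak (class average 57.7%), and 2 of these 4 were among the 3 lowest folds of the erasers. SIRT7, a nucleolar deacetylase, had the lowest fold of all members, 2.61 at chr17:79875641-79876003, with 23 fragments (14.6 to 34.5) over a rate of 8.18. SIRT1 also had 23 fragments, but over a rate of 1.81, and a fold of 8.55. NSD3 reached 13.3 from the same 23 fragments. SIRT5 had 5.59 at chr6:13574565-13575362 from 8 fragments (3.45 to 15.8), and SIRT2 had 6.13 from 9. SIRT3, SIRT4 and SIRT6 had no peak, and the nearest peak to SIRT6 lay 1594 bp from its start site. At SIRT7 the low fold went with a high background and not with few fragments, and at SIRT5 it went with few fragments.

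**Figure D2:**
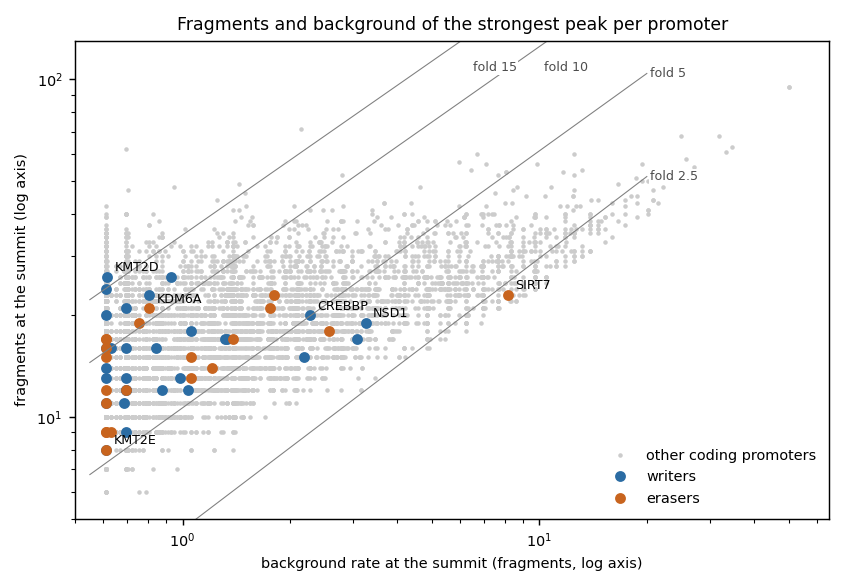
Fragments at the summit against the background rate, both on log axes, for the strongest new peak per promoter. Grey points are other coding promoters, blue writers and orange erasers, lines mark equal fold, and SIRT7 (23 fragments over 8.18) lies far to the right of the other members.

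At 16 of the 50 members, or 32.0%, the background equalled the lowest, genome-wide rate, against 34.8% of all promoters with a peak. It exceeded 2 at CREBBP, KDM2B, DOT1L, NSD1, KMT5B and SIRT7, which had folds of 2.61 to 6.40. The rate is part of the fold, so a high rate lowers it by construction. Low folds were also found at low rates, as in SETD2, KMT2E, SIRT5, SIRT2, KDM5C, KDM6B and EZH1, with folds of 5.59 to 6.39 at rates of 0.611 to 1.04.

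On chromosome X, 2 of 4 member promoters had a new peak, whereas 8.17% of all promoters on X had one. The members with a peak were KDM6A and KDM5C. KDM5C, which removes methyl groups from H3K4, had a fold of 6.21 at chrX:53253828-53254080 with 9 fragments (4.12 to 17.1) and its summit in coding exon 1. HDAC6, with 137 CpGs, and HDAC8, with 51 CpGs and no island, had no peak. Of X promoters in islands 12.8% had a peak, and 2 of the 3 island members on X (9.43% to 99.2%). Both member intervals include the matching share over all X promoters. Over all X promoters with a peak the median fold was 3.97 and the median rate 6.25. Over all promoters with a peak these medians were 8.26 and 0.720.

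Of 19 sets of paralogues, all members had a peak in 8 sets, none in 3, and some but not others in 8. In the last group, the promoter without a peak had fewer CpGs for HDAC1 (99, against 153 in HDAC2), for KAT2A (83, against 159 in KAT2B), for KMT5C (119, against 247 in KMT5B) and for SETD1A (166, against 205 in SETD1B). The order was the other way for KDM2A (197 CpGs, no peak) and KDM2B (84 CpGs). In class IIa the CpGs numbered 266 in HDAC4 and 26 in HDAC9, both without a peak, and 125 and 151 in HDAC5 and HDAC7. In the KDM4 set, KDM4C (164 CpGs, fold 7.54) and KDM4D (86 CpGs, fold 9.93) had a peak, and KDM4A, KDM4B, KDM4E and KDM4F with 95, 174, 32 and 12 CpGs had none. In the KDM5 set, KDM5B (142 CpGs, fold 6.78) and KDM5C (111 CpGs, on X) had a peak, and KDM5A with 95 CpGs had none. KDM5D (71 CpGs) had none either, but it lies on chromosome Y. Whether these cells hold a Y chromosome was not examined, so its lack of a peak cannot be set against its CpGs. These differences are counted over genes and were not tested.

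In all, 45 members had at least 130 CpGs, and 77.8% of them had a peak, against 76.7% of all promoters with as many. The 10 without one were KMT2A, KMT2B, SETD1A, SETD5, KDM2A, KDM4B, HDAC4, HDAC6, HDAC10 and SIRT3. Their nearest peaks lay 8335 bp to 171082 bp from the start site. The list holds regions gained over untreated cells at the threshold of the authors, and the lack of a peak is no measurement of methylation at a promoter.

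New peaks did not always sit on the start site. A peak covered it in 24 of the 50 members, or 48.0% (33.7% to 62.6%), against 64.3% of all promoters with a peak and 63.5% when averaged over the CpG classes of these members. Where it was not covered, the nearest peak edge lay a median of 242.5 bp away in 26 members and 158 bp over all promoters. The summit of the strongest peak was downstream of the start site in 31 members, or 62.0%, against 70.5% of all promoters with a peak. It was over 500 bp upstream in 9 members, or 18% of them, against 8.24%. This share was not averaged over CpG classes. Writers were 8 of these 9, and 29 of the 50 members with a peak. Among the 9 is PRMT7, whose promoter also holds the start site of SLC7A6OS. The farthest summit was that of KAT6B, at -1772 bp from the start site (upstream positions are negative). Of the KAT6B peak 447 bp reach into the promoter. In KMT2D the peak ran from 84 bp to 1205 bp downstream of the start site, and in NSD2 the stronger peak ended at -355 bp.

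**Figure D3:**
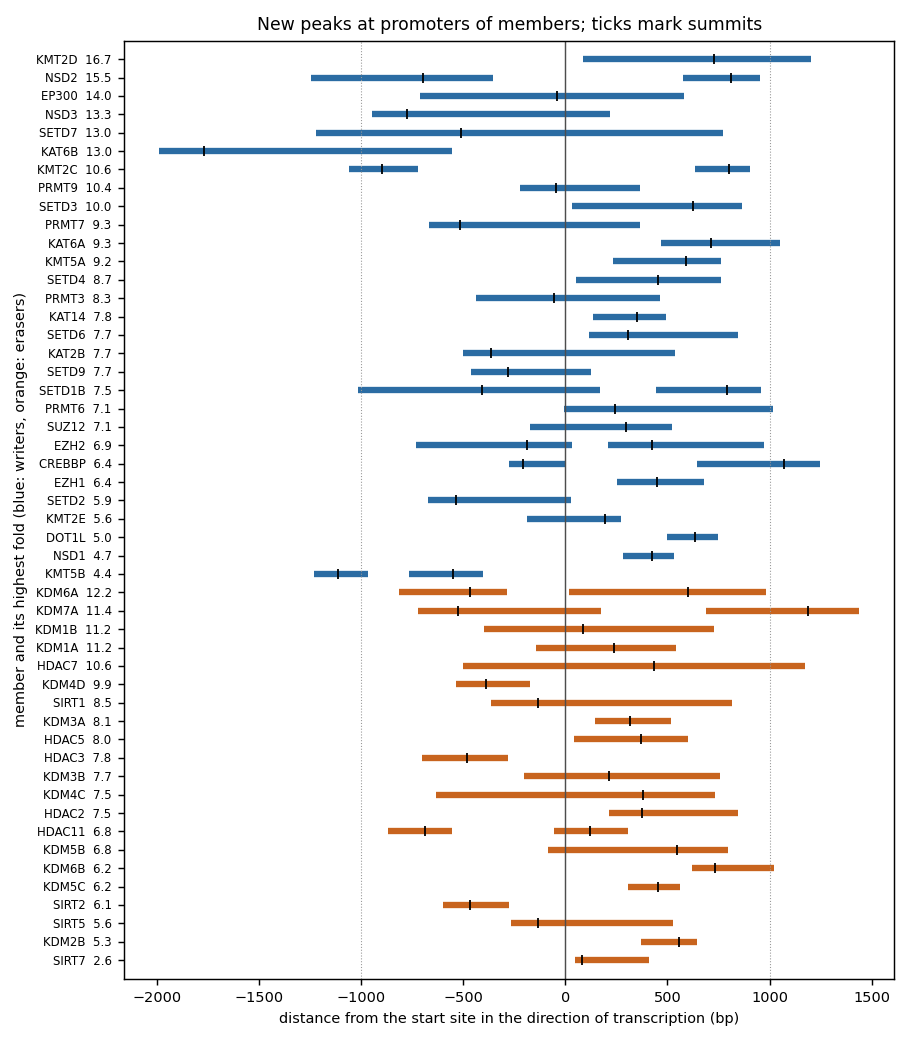
New peaks at the promoters of the 50 members with one, as bars along the distance from the start site (bp, direction of transcription), with a tick at each summit, writers in blue and erasers in orange, sorted by the highest fold. Dotted lines mark 1000 bp, and the start site lies between a pair of peaks in NSD2, KMT2C, SETD1B, EZH2, CREBBP, KDM6A, KDM7A and HDAC11 or inside one of them, while both KMT5B peaks lie upstream.

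More than 1 new peak lay at the promoter of 9 members, or 11.1%, against 5.22% of all promoters and 10.5% when averaged over the CpG classes of the members. In KDM7A the folds were 11.4 at both peaks. In KDM6A they were 12.2 downstream and 8.30 upstream, in NSD2 15.5 upstream and 8.07 downstream, and in KMT2C 10.6 upstream and 8.07 downstream. EZH2 had 6.92 and 5.86, SETD1B 7.45 and 6.28, HDAC11 6.82 and 6.70, CREBBP 6.40 and 3.59, and KMT5B 4.40 and 2.73. The second peak of KMT5B reached into the promoter by 32 bp, the shortest overlap of a peak with a member promoter. At the limit of the window, PRMT8 and SIRT6 lay just outside, and no other member without a promoter peak had one within 2000 bp of its start site.

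Of the 81 member promoters, 12 also held the start site of another coding gene, and 7 of these 12 had a new peak, against 48.7% of all such promoters. Such a peak cannot be assigned to either gene. The summit lay at -389 bp from the start site of KDM4D, which shares its promoter with CWC15, at -484 bp for HDAC3 with RELL2, at -516 bp for PRMT7 with SLC7A6OS and at -465 bp for SIRT2 with NFKBIB. It lay 627 bp downstream for SETD3 with CCNK, 350 bp for KAT14 with PET117 and 88 bp for KDM1B with TPMT. No new peak was listed at the promoters that SIRT3 shares with PSMD13 and SIRT6 with ANKRD24.

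Within the genes but outside the promoter, 23 new peaks lay in 13 members, or 16.0%, against 11.7% of all protein-coding genes. Of these peaks 15 overlapped a CpG island and 7 lay at the start of another coding transcript of the same gene. The single peaks counted in SETD4 (fold 6.21) and SIRT5 (fold 5.59) lay at the starts of other genes, CBR1 and NOL7. KDM2B held 6 of them. The strongest, at chr12:121974774-121976340 with a fold of 16.1, 25 fragments and 153 CpGs, lies near another coding start, with its summit 43091 bp downstream of the canonical start site, where the fold was 5.31. KMT5A had 3 further peaks with folds from 5.81 to 11.3. KDM4B had 3 in introns outside islands with folds of 3.06 to 3.73, over background rates of 6.25 to 11.1. HDAC9 had a peak with a fold of 8.07 near another coding start, with its summit at -408579 bp from the canonical one, and HDAC7 one with a fold of 11.2 in an intron, also near another coding start. KMT2E had a peak with a fold of 15.5 in a CpG island at -29868 bp. PRMT8 had one of 8.43 just beyond its promoter.

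Other enzymes with such activities and the partners of the members in complexes were taken from lists by symbol. A new peak lay at 14 of 25 promoters of other writers, or 56.0% (class average 59.5%). Among other erasers it lay at 5 of 10, or 50% (class average 63.9%). Methyltransferase complex partners had a peak at 10 of 17 promoters, or 58.8% (class average 62.9%). For acetyltransferase complex partners the count was 15 of 22, or 68.2% (class average 69.8%). For deacetylase and demethylase complex partners it was 13 of 23, or 56.5% (class average 69.0%). Over all 97 genes the share was 58.8%, beside 65.1% averaged over their CpG classes, and the median fold was 7.54. Of the listed genes on X, JADE3, HCFC1 and SUV39H1 had a peak. EZHIP, MSL3, PHF8, RBBP7, TAF1 and TBL1X on X and UTY on Y had none. The class averages take no account of chromosome, and 12.8% of all X promoters in islands had a peak. Among the partners the highest fold was that of RCOR1, which binds KDM1A and HDAC1 in the CoREST complex, with 16.8 from 26 fragments.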

How the data were processed

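MBD-seq reads, made with a GST-MBD2 pulldown, were mapped to hg19 by the authors with Bowtie2 under default settings. The submitters' processing notes also name FastQC, deepTools and MACS2, and give no versions. The deposited list of the wild type library follows the narrowPeak format (10 columns). In it, the authors' fold is a ratio of summit fragments to a local or genome-wide background rate, each with 1 added. The control behind the rate is inferred to be the untreated library. Deposited p-value and q-value columns are on the −log10 scale. The authors' score, which follows −log10 q, was not used, and the last deposited column places the summit within its peak. The list holds 12864 new peaks, of which 12795 lie on chromosomes 1 to 22, X and Y. The smallest −log10 q was 2.00. Whether duplicates were removed before calling is not given in the sources used here.

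Sequence was that of GRCh37 and gene models those of GENCODE release 44 in hg19 coordinates, and the 5′ end of the gene stood for 281 genes without a lifted canonical transcript. Overlap of at least 1 bp was counted. Runs of sequence scored by +17 per CpG and -1 for any further base were taken as CpG islands if longer than 200 bp, with GC at or over 50% and observed/expected CpG over 0.6, and repeats were not masked. Fragments (k) and background rate were solved for jointly, with fold = (k + 1)/(rate + 1) and p = the upper Poisson tail beyond k, and each listed −log10 p was met within 0.000403. Depth is not listed, the summits of the list held a median of 18 fragments, and intervals cover counting error only. The recovery of fragments was tested on values simulated with the same formulas. The island search was tested on islands planted in sequence of only A and T, which is unlike hg19. Overlaps of simulated intervals were compared with an exhaustive search. On hg19 the unmasked search gave 50888 islands, more than the paper counted with the UCSC set. With 1 library per group no test was made.

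The members, roles and lists were chosen with earlier results of these data known. Described in full were the 3 members with the highest and the 3 with the lowest fold among writers and among erasers, members with more than 1 peak, those on X, those without a peak but with at least the median CpGs of promoters with one, the PRC2 core, EP300 and CREBBP, paralogue sets with mixed results, and members at the limit of the promoter window. The other members are given by role. RCOR1 was named after its value had been seen. Python 3.11.15, samtools 1.23.1, pysam 0.24.0, numba 0.67.0, scipy 1.17.1, pandas 2.3.3, matplotlib 3.10.9 and numpy 2.4.6 were used.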

Additional observations from a re-analysis of the deposited data

How the results depend on the processing

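Of 50 alternatives, 44 kept a count, a median or a ratio within 1.5 times of its value. A turn of direction was defined only for the ratio of median CpGs, where there was none. Limiting promoters to CpG islands, strict or not, left the counts unchanged, since every member with a peak lay in an island. When peaks under the median fold of the list were dropped, which leaves fewer by construction, the promoters with a new peak fell to 32 members, 19 writers and 13 erasers, and 25.6% of all promoters had one. With a −log10 q of at least 10 they fell to 27 members, 16 writers and 11 erasers, and 24.6% of all promoters had one. Other settings gave 41 to 52 members, the lowest being 41 among the 64 with a catalytic role on histones. KAT6B dropped out when the summit had to lie in the promoter, KDM6B, KMT2C and KAT6B with 500 bp on either side, and PRMT8 and SIRT6 came in with 2000 bp. With the start of any coding transcript HDAC9 and KAT8 came in. The ratio of median CpGs in members with and without a peak stayed between 1.27 and 1.44. Precision is limited by 8 to 26 fragments at the summit of the strongest peak of each member. No paired analysis was possible because each condition has a single library.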
